A study of Caenorhabditis elegans with 12 samples.

Results

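Loss of insulin/IGF-1 receptor function was compared between 3 pfd-6(gk493446); daf-2(e1370) double mutant libraries (strain IJ485) and 3 pfd-6(gk493446) libraries (strain IJ462), 6 of the 12 mRNA-seq libraries of the series. Both groups carry the same pfd-6 allele, so the labelled genotypes differ at daf-2 alone. The other 6 libraries came from wild-type N2 and from daf-2(e1370) animals (strain CF1041), 3 each. All were whole-body RNA of day 1 adult Caenorhabditis elegans. The animals were raised on control RNAi bacteria up to the last larval stage and then moved to control or pfd-6 RNAi plates with FUdR, a DNA synthesis inhibitor that stops progeny from developing. No label says which library came from which plate, so an RNAi difference between the groups cannot be told apart from the genotype. Each genotype is represented by a strain of its own, and the labels call the replicates biological repeats, of which the last set was added later. Which replicate numbers belong to that later set is not labelled. Of 46904 gene IDs, 14465 had 10 or more counts in at least 3 of the 6 libraries and were tested. Since 3 libraries are enough, a gene can enter through a group in which it is high.

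DAF-2 is the worm's insulin/IGF-1 receptor. Reduced DAF-2 signalling lets the FOXO transcription factor DAF-16 enter nuclei, where it raises stress defence and metabolic genes, and daf-2 mutants are long-lived. PFD-6 is a subunit of prefoldin, a chaperone complex that passes unfolded actin and tubulin to the chaperonin TRiC/CCT, and the study asks how it links the heat shock factor HSF-1 to DAF-16. The comparison therefore addresses what the daf-2 mutation does to the transcriptome of animals that are already short of pfd-6 function. Levels below are CPM, that is, counts scaled to library size, with TMM factors that correct for differences in composition between libraries. Fold changes are log2, double mutant over pfd-6 mutant. Adjusted p-values are from edgeR's quasi-likelihood test with Benjamini-Hochberg adjustment over all genes tested, and a gene was called at an adjusted p under 0.05.

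The 6 libraries held 22295483 to 32374704 counts. The pfd-6 transcript stood at 13.9 ± 6.48 CPM in the pfd-6 mutant and 15.9 ± 1.33 CPM in the double mutant (SD, n = 3 each), against 110.5 ± 29 CPM in N2 and 101 ± 50.3 CPM in the daf-2 mutant, so pfd-6 mRNA was low in every library that carries the allele. The genes daf-2, daf-16 and hsf-1 themselves were not called, with log2 fold changes of 1.3, 0.02 and 0.26. Replicate 3 of the pfd-6 mutant stood apart. Cytosolic ribosomal protein genes took 0.664% of its counts (95% Wilson interval 0.661 to 0.668%, counting error only), against 10.4 to 16.8% in the other 5 libraries. Replicate 3 of the daf-2 mutant had a like share of 1.52%, and the highest rank correlation of pfd-6 replicate 3 with any library was with that library (Spearman 0.955) rather than with pfd-6 replicates 1 and 2 (0.887 and 0.893). The 3 double mutant libraries correlated with one another at 0.980 to 0.992. Results are therefore given with and without pfd-6 replicate 3. In whole-body RNA, fewer cells of a type and less RNA per cell cannot be told apart.

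In the double mutant 499 of 14465 genes were called (3.45%), 347 higher (2.4%) and 152 lower (1.05%). Without pfd-6 replicate 3, 388 were called (2.68%), 293 higher (2.03%) and 95 lower (0.657%). The calls shared by both fits numbered 277, of which 199 were higher and 78 lower, and no gene was called in opposite directions. The called genes that rose had a median log2 fold change of 3.25, and those that fell had a median of -2.47, while the median of all genes tested was -0.02. The smallest called changes were 1.11 upward and 0.87 downward in size, so small changes are little represented. In 308 of the 499 genes the higher group averaged under 10 CPM. The libraries of the groups did not overlap for 4185 genes tested (28.9%), and for 346 of the 347 genes that rose and 151 of the 152 that fell.

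**Figure D1:**
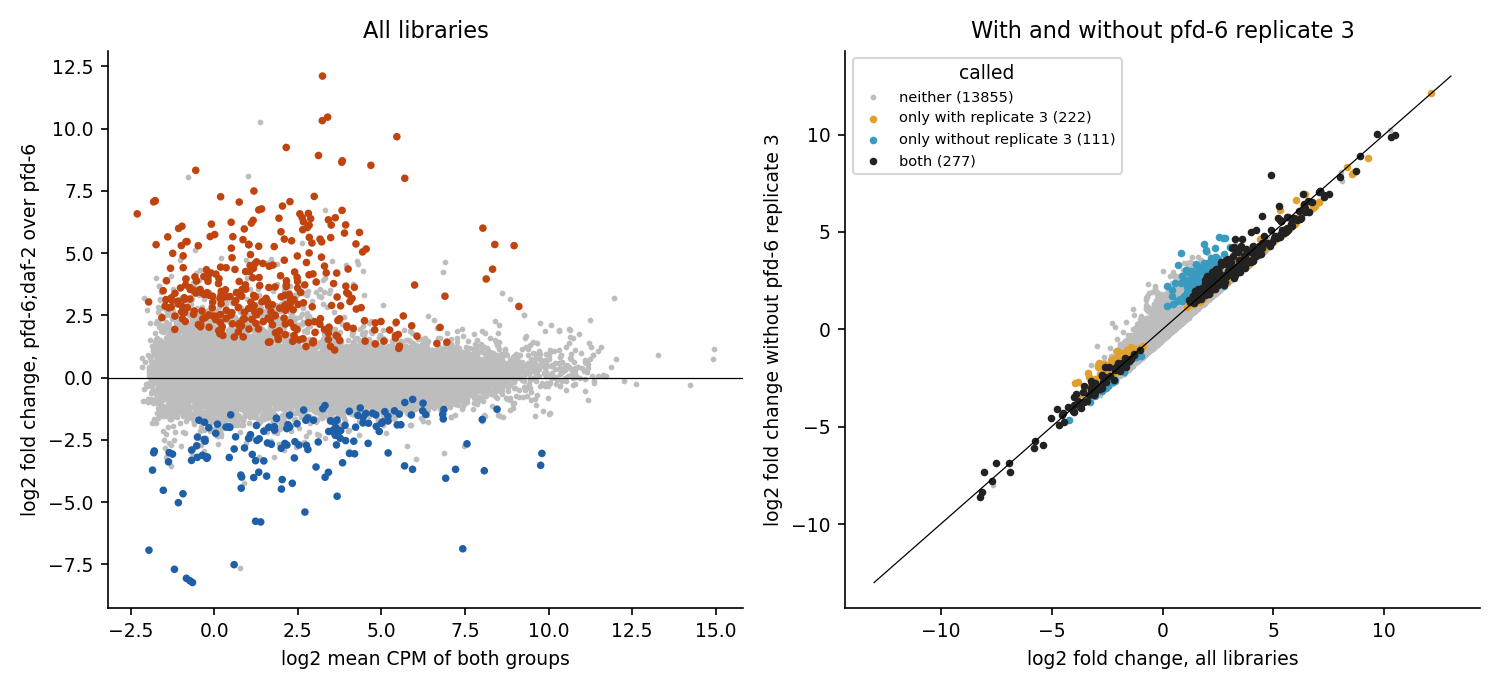
Left, log2 fold change (double mutant over pfd-6 mutant) against log2 mean CPM for the 14465 genes tested, with called genes coloured. Right, the same fold change with all 3 pfd-6 libraries (x) and without pfd-6 replicate 3 (y), coloured by the fit that calls the gene: 277 genes are called in both, 222 only with that library and 111 only without it.

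The count rests on which libraries are included. Leaving out pfd-6 replicate 1, 2 or 3 gave 200, 900 or 388 calls, and leaving out double mutant replicate 1, 2 or 3 gave 151, 197 or 126. The call held with any 1 of the 12 libraries left out for 98 of the 499 genes, 60 higher and 38 lower. A fit with an offset for transcript length in each library called 456 genes higher and 777 lower, so 37% of its calls were upward against 69.5% here, and it moved the median of all genes to -0.24. The called genes were short, with a median exon length of 1168 bases among those that rose and 994.5 among those that fell, against 1374 over all genes tested. In pfd-6 replicate 1 genes with 2309 or more exon bases had a median log2 CPM of 4.49, against 5.13 to 5.63 in the other 5 libraries of the comparison and 4.997 to 5.753 in the N2 and daf-2 libraries.

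Genes known to be raised by DAF-16 rose in part in the double mutant. Of the 27 members that could be tested, 7 rose and none fell (25.9% called, against 3.45% of all genes tested). A positive fold change was found for 25, with a median of 1.248 against -0.02 over all genes. The 7 were mtl-1, sams-5, dod-6, lea-1, sod-3, nnt-1 and cyp-35B1. Many genes of this class were defined in other studies by comparing daf-2 mutants with and without DAF-16, so its direction in a daf-2 mutant is not new evidence about the class. The geometric mean level of the 27 genes was 15.5, 16.8 and 6.41 CPM in pfd-6 replicates 1 to 3 and 34.3, 39 and 44.8 CPM in double mutant replicates 1 to 3. The double mutant libraries all lay above the pfd-6 libraries, and pfd-6 replicate 3 was the lowest of the 6.

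sod-3 (WBGene00004932; chromosome X, 17092753 to 17094306), the mitochondrial manganese superoxide dismutase used as a standard readout of DAF-16 activity, stood at 5.53, 3.73 and 3.88 CPM in pfd-6 replicates 1 to 3 and 21.4, 22.2 and 24.1 CPM in the double mutant. The groups were far apart and each was tight (log2 change 2.36 with an SE of 0.32 and an adjusted p of 0.00398), and the fold change was 2.33 (adjusted p = 0.0131) without pfd-6 replicate 3. mtl-1 (WBGene00003473; chromosome V, 6691371 to 6691863), a metallothionein that binds heavy metals, rose from 1.67, 1.17 and 0.303 CPM to 10.8, 13.3 and 34 CPM (log2 change 4.21 with an SE of 0.72 and an adjusted p of 0.0114), with its extremes in replicate 3 of each group. Both calls held with any library left out. lea-1 (WBGene00002263; chromosome V, 10011923 to 10028168), which encodes a late embryogenesis abundant-like protein of desiccation tolerance, was the most abundant of the 7, at 99.6, 214 and 88.6 CPM in the pfd-6 mutant and 877, 800.4 and 1237 CPM in the double mutant (log2 change 2.86 with an SE of 0.51 and an adjusted p of 0.0139). Its groups did not overlap, but the adjusted p was 0.0568 without pfd-6 replicate 1 and 0.0712 without double mutant replicate 3.

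nnt-1 (WBGene00003778), the mitochondrial nicotinamide nucleotide transhydrogenase that makes NADPH, had 4.19, 7.84 and 6.61 CPM in the pfd-6 mutant and 22, 27.7 and 25.9 CPM in the double mutant (log2 change 2.02 with an SE of 0.36 and an adjusted p of 0.0139), and the adjusted p was 0.0698 without double mutant replicate 3. sams-5, an S-adenosylmethionine synthetase, rose with a log2 fold change of 3.86, adjusted p = 0.0294; its call was lost without pfd-6 replicate 1 (0.084), double mutant replicate 1 (0.0651) or double mutant replicate 3 (0.142). dod-6 rose by 3.27 with all libraries and by 4.65 without pfd-6 replicate 3, a library with 48.7 CPM of it against 2.85 and 15.7 CPM in the other pfd-6 libraries. The dod-6 call was lost in 8 of the 12 fits that leave out a library (adjusted p 0.0101 to 0.142), among them without pfd-6 replicate 2 (0.0638), double mutant replicate 1 (0.0822), double mutant replicate 2 (0.0922) or double mutant replicate 3 (0.142). cyp-35B1, a cytochrome P450, had a log2 fold change of 1.88, adjusted p = 0.0469, and 1.71 (adjusted p = 0.0906) without pfd-6 replicate 3; its call was lost in 9 of 12 such fits (adjusted p 0.0261 to 0.15), among them without pfd-6 replicate 1 (0.12), pfd-6 replicate 3 (0.0906), double mutant replicate 1 (0.117), double mutant replicate 2 (0.15) or double mutant replicate 3 (0.143). The number of called genes in the class was 6 without pfd-6 replicate 3, 4 without double mutant replicate 1 and 2 without double mutant replicate 3.

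The steepest rises were in genes almost silent in the pfd-6 mutant. The rule took genes called with and without pfd-6 replicate 3, at 10 CPM or more in the double mutant and with groups that do not overlap. Lack of overlap is thus no finding for the genes it picks. The 12 steepest were clec-18, F35E8.6, Y39G8B.7, spp-9, Y47D7A.15, clec-15, ZK180.5, col-161, WBGene00008842, grl-16, F15B9.6 and col-146. Y39G8B.7 (WBGene00012727; chromosome II, 13994410 to 13995034) had 0.0911, 0.0754 and 0.138 CPM in pfd-6 replicates 1 to 3, about 10 counts in all, and 38.2, 59.8 and 166 CPM in the double mutant. Every double mutant library was far above every pfd-6 library, and replicate 3 was the highest (log2 change 9.68 with an SE of 0.79 and an adjusted p of 0.000431). clec-15 (WBGene00010399; chromosome I, 12635172 to 12636542), a C-type lectin, a class of secreted sugar-binding proteins with roles in defence, went from 0.364, 0.603 and 0.248 CPM to 109.6, 129.5 and 71.5 CPM (log2 change 8.01 with an SE of 1.04 and an adjusted p of 0.0032). F15B9.6 (WBGene00008850) had 0.607, 0.301 and 0.358 CPM in the pfd-6 mutant and 32, 39.3 and 19 CPM in the double mutant (log2 change 6.13 with an SE of 0.70 and an adjusted p of 0.00173). In these last 2 genes replicate 3 was the lowest of the double mutant libraries. The 3 calls held with any library left out.

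In some of them the double mutant signal came mainly from its replicate 3. spp-9 (WBGene00004994; chromosome X, 11487784 to 11488203), a saposin-like protein, had 3 counts over the pfd-6 group, and 3.34, 3.09 and 45.6 CPM in the double mutant, a depth-scaled ratio of 442 (95% counting interval 151 to 2146). clec-18 had 1 count over the pfd-6 group and 3.06, 2.41 and 57.5 CPM in the double mutant, a ratio of 1576 (95% counting interval 282 to 62298). As the rule requires, all 3 double mutant libraries were above all 3 pfd-6 libraries in both genes, but replicate 3 held 87.6% and 91.3% of the summed double mutant CPM. Among genes that rose, 7 had more than 80% of the double mutant signal in that library, and the other 5 were F35E8.6, F35E8.7, asp-18, scl-19 and cpr-2. F35E8.7 was at 0 counts in every pfd-6 library and had 0.949, 1.42 and 54.3 CPM in the double mutant, at least 464-fold higher against a floor of 3 counts over the group; its adjusted p was 0.0404, and the call was lost without pfd-6 replicate 1 (0.101), pfd-6 replicate 2 (0.0539), pfd-6 replicate 3 (0.0765), N2 replicate 2 (0.0502), daf-2 replicate 1 (0.0629) or daf-2 replicate 2 (0.0676). F35E8.6 lost its call without pfd-6 replicate 1 (0.0568). asp-18, an aspartyl protease, had 3.44, 3.5 and 147 CPM in the double mutant, and its call was lost without pfd-6 replicate 1 (0.115), pfd-6 replicate 3 (0.0798), double mutant replicate 3 (0.178), N2 replicate 2 (0.0558) or daf-2 replicate 2 (0.0505).

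**Figure D2:**
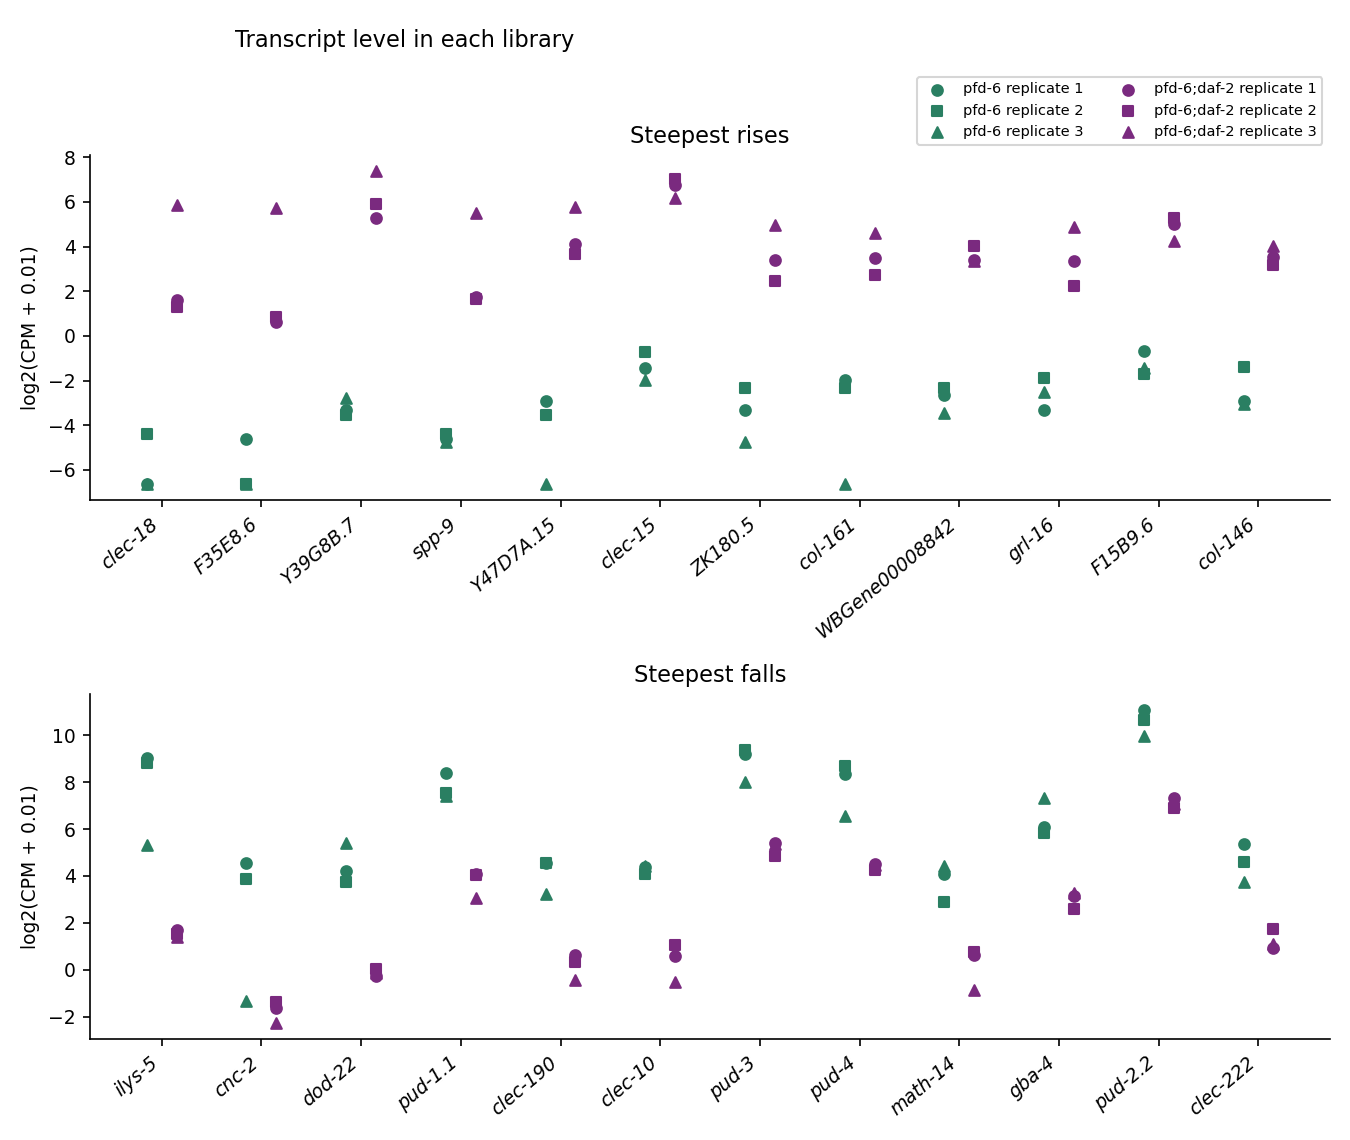
log2(CPM + 0.01) of the 12 steepest rises and the 12 steepest falls in the 3 pfd-6 and the 3 double mutant libraries, with a marker shape for each replicate number. The genes were chosen to have groups that do not overlap. For spp-9, clec-18 and F35E8.6 the double mutant replicate 3 marker lies far above the others.

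Of the 48 gene lists read, that of cuticle collagens held the most rises. Of 114 tested col genes (of 156 listed), 48 rose and none fell (42.1% called, against 3.45% of all genes tested). A positive fold change was found for 107, and the median was 3.21. The libraries of the groups did not overlap for 99 of them, always with the double mutant higher, against 14.8% of all genes tested. These genes encode the small collagens that hypodermal cells secrete to build the exoskeleton at each moult. Their geometric mean level was 3.31, 3.82 and 0.659 CPM in pfd-6 replicates 1 to 3 and 18.9, 15.2 and 30.1 CPM in the double mutant, so pfd-6 replicate 3 was the lowest and double mutant replicate 3 the highest. Without pfd-6 replicate 3 the median was 2.88 and 28 genes were called. The number called was 14 without pfd-6 replicate 1, 19, 31 and 12 without double mutant replicates 1, 2 and 3, and 6 with replicate 3 of both groups left out. The median stayed positive under each of the 26 settings tried, from 2.26 to 3.78.

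col-62 (WBGene00000638; chromosome I, 7403291 to 7404374) had 1.49, 0.678 and 0.496 CPM in the pfd-6 mutant and 30.5, 31.7 and 48.5 CPM in the double mutant (log2 change 5.37 with an SE of 0.77 and an adjusted p of 0.00546). col-156 (WBGene00000729; chromosome V, 11449219 to 11450357) had 1 count over the pfd-6 group and 1.48, 0.928 and 4.42 CPM in the double mutant, a ratio of 191 (95% counting interval 33.8 to 7600.2) with an adjusted p of 0.00398, and col-146 and col-147 rose by 5.94 (adjusted p = 0.00983) and 5.05 (adjusted p = 0.00642). In each of the 4, every double mutant library was above every pfd-6 library, and the call held with any library left out. col-161 rose by 6.59 (adjusted p = 0.0242) but had no pfd-6 replicate 3 counts, and its call was lost without pfd-6 replicate 1 (0.0644), double mutant replicate 1 (0.0547) or double mutant replicate 3 (0.0905). The collagens col-19 and col-119, picked from the hypodermis markers after their values were seen, were far lower in pfd-6 replicate 3 than in the other pfd-6 libraries. The remaining hypodermis marker, dpy-7, was not lowest there, at 0.122, 0.339 and 0.138 CPM in pfd-6 replicates 1 to 3. col-19 stood at 1326, 1146 and 48.9 CPM in the pfd-6 mutant and 2545, 2523 and 2619 CPM in the double mutant, and col-119 at 2236, 2997 and 133 CPM and 3354, 3224 and 3588 CPM; their adjusted p-values were 0.392 and 0.635.

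Other cuticle genes followed in part. Of 20 body-shape collagens, which give worms a dumpy, rolling or blistered form when mutated, 6 rose (bli-6, sqt-2, rol-8, dpy-13, dpy-4 and rol-6) and none fell, with a median of 2.98. That is 30% called, against 3.45% of all genes tested. Only bli-6 was called without pfd-6 replicate 3, and none was called without pfd-6 replicate 1, double mutant replicate 1 or double mutant replicate 3. bli-6, which encodes a collagen of the adult cuticle, had 2, 1.62 and 0.303 CPM in the pfd-6 mutant and 22.1, 17.6 and 32.4 CPM in the double mutant (log2 change 4.20, adjusted p = 0.0272). Of 56 tested hedgehog-related and patched-related genes, 8 rose and none fell (14.3% called), with a median of 0.51. The 8 were grl-16, grl-17, grl-21, grl-7, wrt-6, wrt-4, grd-6 and grd-10. The hedgehog-related members of the list encode secreted proteins active in cuticle-forming cells. grl-16 (a ground-like gene) had 0.0911, 0.264 and 0.165 CPM in the pfd-6 mutant and 10.1, 4.73 and 28.9 CPM in the double mutant (log2 change 6.38 with an SE of 1.04 and an adjusted p of 0.00965), and held its call with any library left out. The number called was 6 without pfd-6 replicate 3 and 2, 2 and 2 without pfd-6 replicate 1, double mutant replicate 1 and double mutant replicate 3. nas-30, an astacin-type metalloprotease, rose by 3.42 (adjusted p = 0.00695) and also held its call with any library left out.

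Some sperm genes rose, and few of these calls held when a library was left out. All 27 tested major sperm protein genes, which encode the motility protein of nematode sperm, had a positive fold change (median 3.39). Their groups did not overlap, while 14.8% of all genes tested were higher with no overlap. Of the 27, 6 rose (22.2%, against 2.4% of all): msp-59, msp-53, msp-51, msp-19, msp-55 and msp-45. None was called without pfd-6 replicate 3, double mutant replicate 1 or double mutant replicate 3, and 9 were called without pfd-6 replicate 1. These genes are near-identical copies, so reads may be split among them, and they are not independent measurements. Their geometric mean was 2.85, 0.42 and 0.679 CPM in pfd-6 replicates 1 to 3 and 10.3, 8.09 and 21.8 CPM in the double mutant, against 0.725, 0.57 and 3.96 CPM in N2 and 0.884, 0.501 and 0.239 CPM in the daf-2 mutant. N2 replicate 3 was above all 3 pfd-6 libraries and below all 3 double mutant libraries. Of 52 other sperm genes 6 rose (spe-8, gsp-4, gsp-3, spch-2, spe-15 and ssp-10) and none fell, with a median of 2.51. That is 11.5% called, against 3.45% of all genes tested. Without pfd-6 replicate 3, 2 were called (3.85%, against 2.68% of all), and none without double mutant replicate 1 or 3. spe-8, a tyrosine kinase needed for sperm activation, had 0.152, 0.0377 and 0.0827 CPM in the pfd-6 mutant and 1.27, 0.742 and 1.38 CPM in the double mutant (log2 change 3.54 with an SE of 0.65 and an adjusted p of 0.0144), and its call was lost without double mutant replicate 1 (0.0516) or double mutant replicate 3 (0.0677). gsp-4, a sperm protein phosphatase, rose by 3.89 with all libraries (adjusted p = 0.0208); its call was lost without pfd-6 replicate 3 (0.0505), double mutant replicate 1 (0.0508) or double mutant replicate 3 (0.0927). Of 39 germline and oocyte genes none was called, with a median of 0.21.

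The steepest fall was that of ilys-5 (WBGene00017691; chromosome X, 6533490 to 6536840), an invertebrate-type lysozyme, a class of enzymes that break down bacterial cell walls. It stood at 531, 458 and 39.6 CPM in pfd-6 replicates 1 to 3 and 3.27, 2.85 and 2.65 CPM in the double mutant. pfd-6 replicate 3 was the lowest of its group yet above every double mutant library (log2 change -6.87 with an SE of 0.86 and an adjusted p of 0.00269), and the fold change was -7.34 (adjusted p = 3.37e-05) without it. The 12 steepest falls by the same rule were ilys-5, cnc-2, dod-22, pud-1.1, clec-190, clec-10, pud-3, pud-4, math-14, gba-4, pud-2.2 (WBGene00017500) and clec-222. Of these, 10 were called with any library left out. cnc-2, a caenacin antimicrobial peptide, had 23.4, 14.7 and 0.386 CPM in the pfd-6 mutant and 0.316, 0.371 and 0.197 CPM in the double mutant; its pfd-6 replicate 3 value was close to the double mutant, and its call was lost in 8 of 12 fits that leave out a library (adjusted p 0.0106 to 0.177), among them without pfd-6 replicate 1 (0.105), pfd-6 replicate 2 (0.0501), double mutant replicate 1 (0.14), double mutant replicate 2 (0.128) or double mutant replicate 3 (0.177). gba-4, a glucosylceramidase, fell by 3.54 (adjusted p = 0.012) and lost its call without double mutant replicate 1 (0.0508) or double mutant replicate 2 (0.0509). Of 10 lysozyme genes, ilys-5 and lys-6 fell and ilys-3 rose (30% called, against 3.45% of all genes tested). The call of lys-6 was lost without pfd-6 replicate 1 (0.106), double mutant replicate 1 (0.109), double mutant replicate 2 (0.11), double mutant replicate 3 (0.153) or daf-2 replicate 2 (0.0558). That of ilys-3 was lost without pfd-6 replicate 1 (0.0656), double mutant replicate 1 (0.079), double mutant replicate 2 (0.0759) or double mutant replicate 3 (0.0754).

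Genes known to be lowered in daf-2 mutants through DAF-16, together with CUB-like genes of pathogen response, fell in part. Of 21 tested, 6 fell (dod-22, C32H11.4, ins-7, irg-5, F55G11.2 and dod-24) and none rose, with a median of -1.26. That is 28.6% called, against 3.45% of all genes tested. As with the raised class, part of this list was defined in daf-2 mutants. dod-22 (WBGene00010125; chromosome IV, 12965374 to 12967392), a CUB-like secreted protein, had 18.7, 13.4 and 41.9 CPM in the pfd-6 mutant and 0.809, 1.02 and 0.884 CPM in the double mutant (log2 change -4.76 with an SE of 0.52 and an adjusted p of 0.00154). The double mutant libraries were tight and far below the pfd-6 libraries, of which replicate 3 was the highest. C32H11.4 fell by 3.02 (adjusted p = 0.00802), and these 2 calls held with any library left out. ins-7, an insulin-like peptide that acts as a DAF-2 agonist, had 10.02, 4.11 and 9.01 CPM in the pfd-6 mutant and 0.387, 0.216 and 0.442 CPM in the double mutant (log2 change -4.47, adjusted p = 0.0195); its call was lost without pfd-6 replicate 1 (0.0509), double mutant replicate 1 (0.074), double mutant replicate 2 (0.0791) or double mutant replicate 3 (0.0754). irg-5, F55G11.2 and dod-24 fell by 3.06, 2.53 and 3.68 with all libraries (adjusted p = 0.0249, 0.0249 and 0.0269), and each lost its call without pfd-6 replicate 1, pfd-6 replicate 3 or any 1 double mutant library. Without pfd-6 replicate 3 their adjusted p-values were 0.0563, 0.0546 and 0.0517. The called number was 4 without pfd-6 replicate 3, 2 without pfd-6 replicate 1 or any 1 double mutant library, and 1 with replicate 3 of both groups left out.

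The pud genes, named for proteins found at higher levels in daf-2 mutants in earlier proteomic work, had lower transcript levels in the double mutant. All 6 tested members were lower with no overlap between groups (median -3.60), as were 14.2% of all genes tested. Of the 6, 5 fell (83.3%, against 1.05% of all): pud-1.1, pud-3, pud-4, pud-1.2 and the pud-2.2 copy WBGene00017500. Several lie side by side on chromosome V between 2322038 and 2327282 and are close copies, so reads may be split among them. pud-3 (WBGene00017501) had 589, 660.4 and 257 CPM in the pfd-6 mutant and 42.5, 29.2 and 41.1 CPM in the double mutant (log2 change -3.74 with an SE of 0.49 and an adjusted p of 0.0032). The most abundant, pud-2.2 (WBGene00017500), had 2191, 1599 and 1005 CPM in the pfd-6 mutant and 163, 120.0 and 135 CPM in the double mutant (log2 change -3.52 with an SE of 0.52 and an adjusted p of 0.00642). pud-1.1 and pud-4 fell by 4.04 (adjusted p = 0.00219) and 3.68 (adjusted p = 0.00324). These 4 calls held with any library left out; that of pud-1.2 (-3.04, adjusted p = 0.0249) was lost without pfd-6 replicate 1 (0.0633), double mutant replicate 1 (0.104), double mutant replicate 2 (0.106) or double mutant replicate 3 (0.0677). The geometric mean of the 6 genes was 698, 591 and 307 CPM in the pfd-6 mutant and 18.8, 24 and 58.8 CPM in the double mutant, against 429, 271 and 552 CPM in N2 and 116, 73.1 and 198 CPM in the daf-2 mutant. The double mutant libraries were below those of N2 and of the daf-2 mutant.

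C-type lectins included both rises and falls. Of 101 tested, 7 rose and 6 fell (12.9% called), with a median of 0.02, and 9 rose and 4 fell without pfd-6 replicate 3. clec-190 (WBGene00010953) had 23.6, 23.2 and 9.45 CPM in the pfd-6 mutant and 1.51, 1.24 and 0.737 CPM in the double mutant (log2 change -4.0 with an SE of 0.46 and an adjusted p of 0.00173). clec-10 (WBGene00015403) had 21.1, 17.1 and 21.5 CPM in the pfd-6 mutant and 1.48, 2.07 and 0.688 CPM in the double mutant (log2 change -3.80 with an SE of 0.40 and an adjusted p of 0.00154), and clec-222 had 41, 24 and 13.6 and 1.86, 3.34 and 2.11 CPM (log2 change -3.42 with an SE of 0.48 and an adjusted p of 0.00467). All 3 genes are among the steepest falls, which were chosen for groups that do not overlap, and their calls held with any library left out. Of 50 nematode-specific peptide genes 8 fell and 2 rose (20% called, against 3.45% of all genes tested). Without pfd-6 replicate 3, 3 fell and none rose (6%, against 2.68% of all). Those 3, nspc-16, nspc-17 and nspc-18, lie with nspc-19 on the X chromosome between 14523575 and 14529114 and are similar copies. nspc-16 had 12.1, 4.03 and 7.16 CPM in the pfd-6 mutant and 0.527, 0.557 and 0.246 CPM in the double mutant (log2 change -4.09 with an SE of 0.67 and an adjusted p of 0.0096). The MATH-domain gene math-14 fell by 3.59 (adjusted p = 0.0114), and the astacin protease nas-3 by 4.24 (adjusted p = 0.00154).

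**Figure D3:**
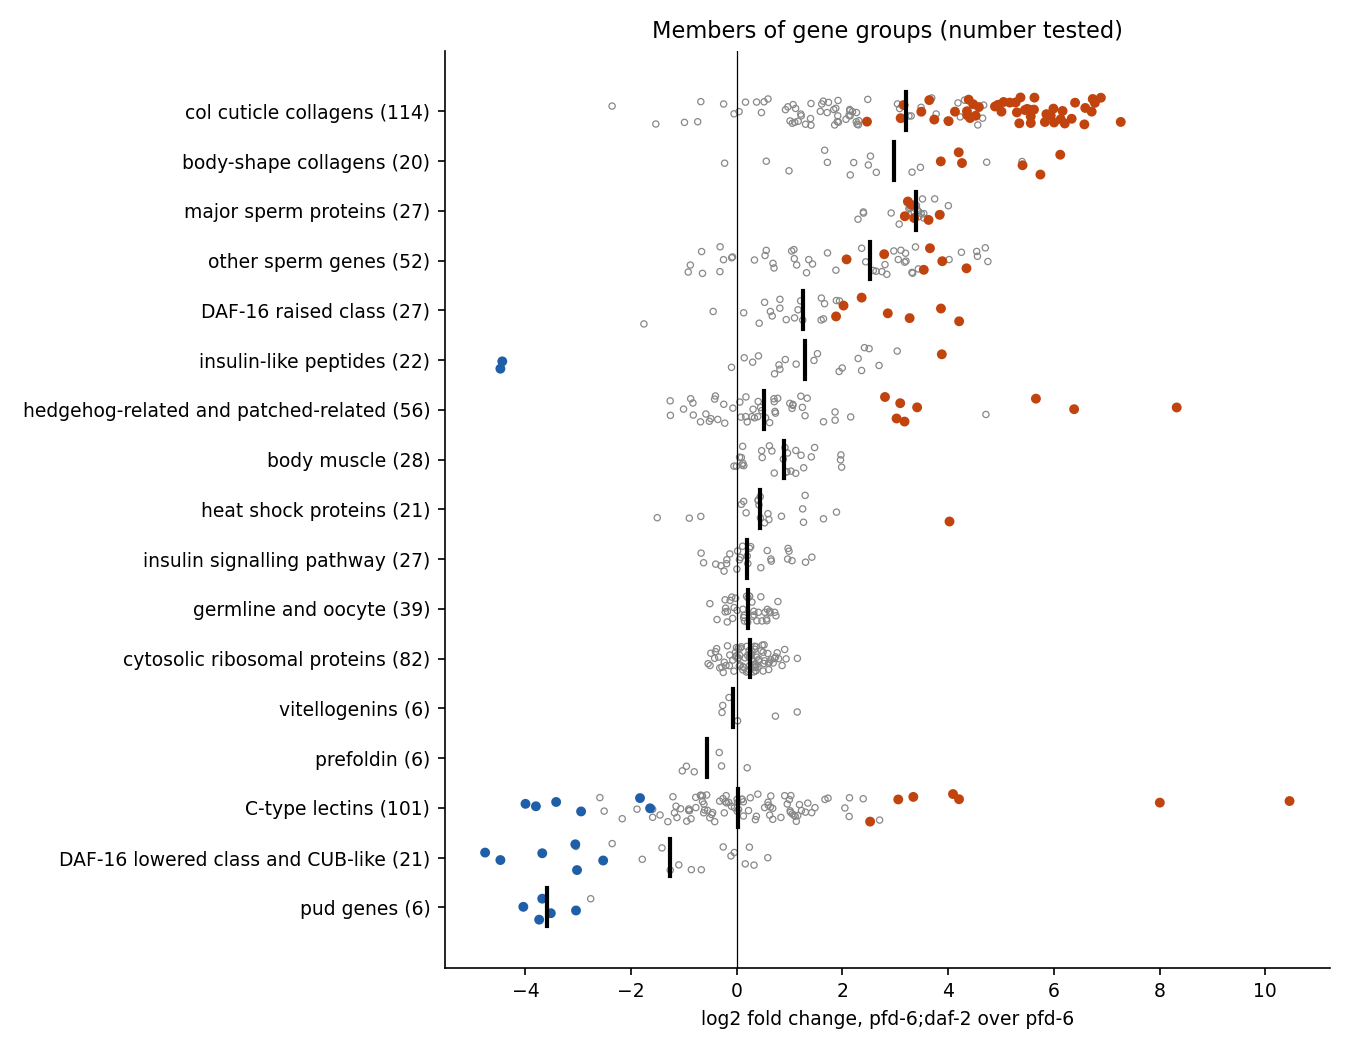
log2 fold change (double mutant over pfd-6 mutant) of each tested gene in 17 gene groups, with called genes coloured and a bar at the group's median. Cuticle collagens (median 3.21), major sperm proteins (3.39) and pud genes (-3.60) lie away from 0, and C-type lectins (0.02) spread to both sides.

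In metabolic and signalling groups the calls went both ways. Of 51 cytochrome P450 genes, which oxidise lipids and foreign compounds, 2 rose and 4 fell (11.8% called, against 3.45% of all genes tested), and 1 rose and 1 fell without pfd-6 replicate 3; in both fits cyp-13A11 rose (4.89, adjusted p = 0.018) and cyp-35C1 fell (-2.43, adjusted p = 0.0142). The cyp-13A11 call was lost without pfd-6 replicate 1 (0.0573) or double mutant replicate 3 (0.0542), and that of cyp-35C1 without double mutant replicate 1 (0.058) or double mutant replicate 3 (0.067). Of 59 UDP-glucuronosyltransferases, which conjugate foreign compounds, ugt-13 rose (1.92, adjusted p = 0.0176) and 2 fell (5.08% called), while 2 rose and none fell without pfd-6 replicate 3; the ugt-13 call was lost without pfd-6 replicate 1 (0.0573), double mutant replicate 2 (0.0628) or double mutant replicate 3 (0.0559). Of 22 insulin-like peptides ins-24 rose (3.88, adjusted p = 0.0139) and ins-7 and ins-19 fell (13.6% called), with 19 of the 22 positive and a median of 1.29. The ins-24 call was lost without double mutant replicate 3 (0.0599). ins-19 stood at 4.55, 4.14 and 1.35 CPM in the pfd-6 mutant and 0, 0.216 and 0.246 CPM in the double mutant. Each of the lists of 35 fatty acid beta-oxidation genes (median 0.08) and of 14 lysosomal lipases and fatty acid binding proteins (median -0.52) held 1 rise and 1 fall. The shares called were 5.71% in the former, near the 3.45% of all genes tested, and 14.3% in the latter. In the former hacd-1, a hydroxyacyl-CoA dehydrogenase, rose from 52.6, 49.5 and 26.2 CPM to 202, 214 and 103.6 CPM (log2 change 2.02 with an SE of 0.36 and an adjusted p of 0.0139), the groups being apart; its call was lost without double mutant replicate 1 (0.0523) or double mutant replicate 2 (0.0501). In the same list acdh-2, an acyl-CoA dehydrogenase, fell by 3.95 (adjusted p = 0.0364), with the call lost without pfd-6 replicate 1 (0.0622), pfd-6 replicate 3 (0.0892), double mutant replicate 1 (0.115), double mutant replicate 2 (0.113), double mutant replicate 3 (0.156) or daf-2 replicate 2 (0.055). In the latter lipl-1, a lysosomal lipase, rose by 1.91 (adjusted p = 0.0218), with the call lost without pfd-6 replicate 1 (0.0591), double mutant replicate 1 (0.0595) or double mutant replicate 3 (0.142). lbp-7, a fatty acid binding protein, fell from 43.7, 21 and 33.9 CPM to 11.2, 9.99 and 11.5 CPM (log2 change -1.59 with an SE of 0.39 and an adjusted p of 0.0461), the groups being apart; its call was lost in 8 of 12 fits that leave out a library (adjusted p 0.0204 to 0.158), among them without pfd-6 replicate 1 (0.13), pfd-6 replicate 3 (0.0881), double mutant replicate 1 (0.14), double mutant replicate 2 (0.158) or double mutant replicate 3 (0.143). The neuropeptide gene flp-1 rose by 1.79 (adjusted p = 0.0294), with the call lost without pfd-6 replicate 1 (0.0864), double mutant replicate 2 (0.0778), double mutant replicate 3 (0.176) or N2 replicate 2 (0.0541). pals-26, of a family tied to the response to intracellular pathogens, rose by 2.93 (adjusted p = 0.00154) and stayed called with any library left out. Of 21 heat shock protein genes only hsp-70 rose (4.02, adjusted p = 0.0385), which is 4.76% called, near the 3.45% of all genes tested. The hsp-70 call was lost without each of the 6 libraries in turn, with an adjusted p of 0.0195 to 0.127 over the 12 fits.

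No gene was called among 27 genes of the insulin signalling pathway, 6 prefoldin subunits, 8 subunits of the TRiC/CCT chaperonin, 19 tubulins and actins, 6 vitellogenins, 33 proteasome genes, 29 autophagy genes, or the sets for endoplasmic reticulum folding and the mitochondrial unfolded protein response. Their medians ran from -0.57 for prefoldin to 0.71 for tubulins and actins, where 17 of 19 genes were positive, 9 were higher with no overlap (14.8% of all genes tested were) and 2 were lower with no overlap (14.2% of all). The test made calls for 5.26% of 2-fold and 41.7% of 4-fold changes planted in simulated counts of this comparison, so a missing call does not show that a gene did not change. Those changes were planted only in better-counted genes, so the shares do not cover genes with few counts. Markers of other tissues were read the same way. Of 28 body muscle genes none was called, 26 were positive and the median was 0.90, with a geometric mean of 71.9, 140.1 and 70.2 CPM in the pfd-6 mutant and 131, 195 and 240.2 CPM in the double mutant, the highest in double mutant replicate 3. The median was 0.26 for 19 intestinal genes, 0.18 for 24 neuronal genes and 1.04 for 18 hypodermal genes. Of the hypodermal genes col-62, col-7 and rol-6 rose (16.7% called, against 3.45% of all genes tested). All 3 also belong to the collagen lists above, so these rises are not separate observations. Of 16 pharynx genes none was called, 13 were positive and the median was 0.81, with 1 called higher and a median of 1.09 without pfd-6 replicate 3. The pharyngeal myosins myo-2 and myo-1 were highest in double mutant replicate 3. The pharynx marker pha-4 was not, at 6.33, 9.87 and 6.29 CPM in double mutant replicates 1 to 3. myo-2 stood at 1.22, 13.4 and 12.4 CPM in the pfd-6 mutant and 9.11, 18.4 and 94.9 CPM in the double mutant, and myo-1 at 0.911, 10.6 and 21.4 CPM and 9.6, 17.5 and 94.6 CPM, with overlapping groups in both (adjusted p = 0.267 and 0.392). Cytosolic ribosomal protein genes had a median of 0.25 with all libraries and -0.26 without pfd-6 replicate 3. The part of tissue make-up or of these library differences in the collagen and sperm results was not tested.

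**Figure D4:**
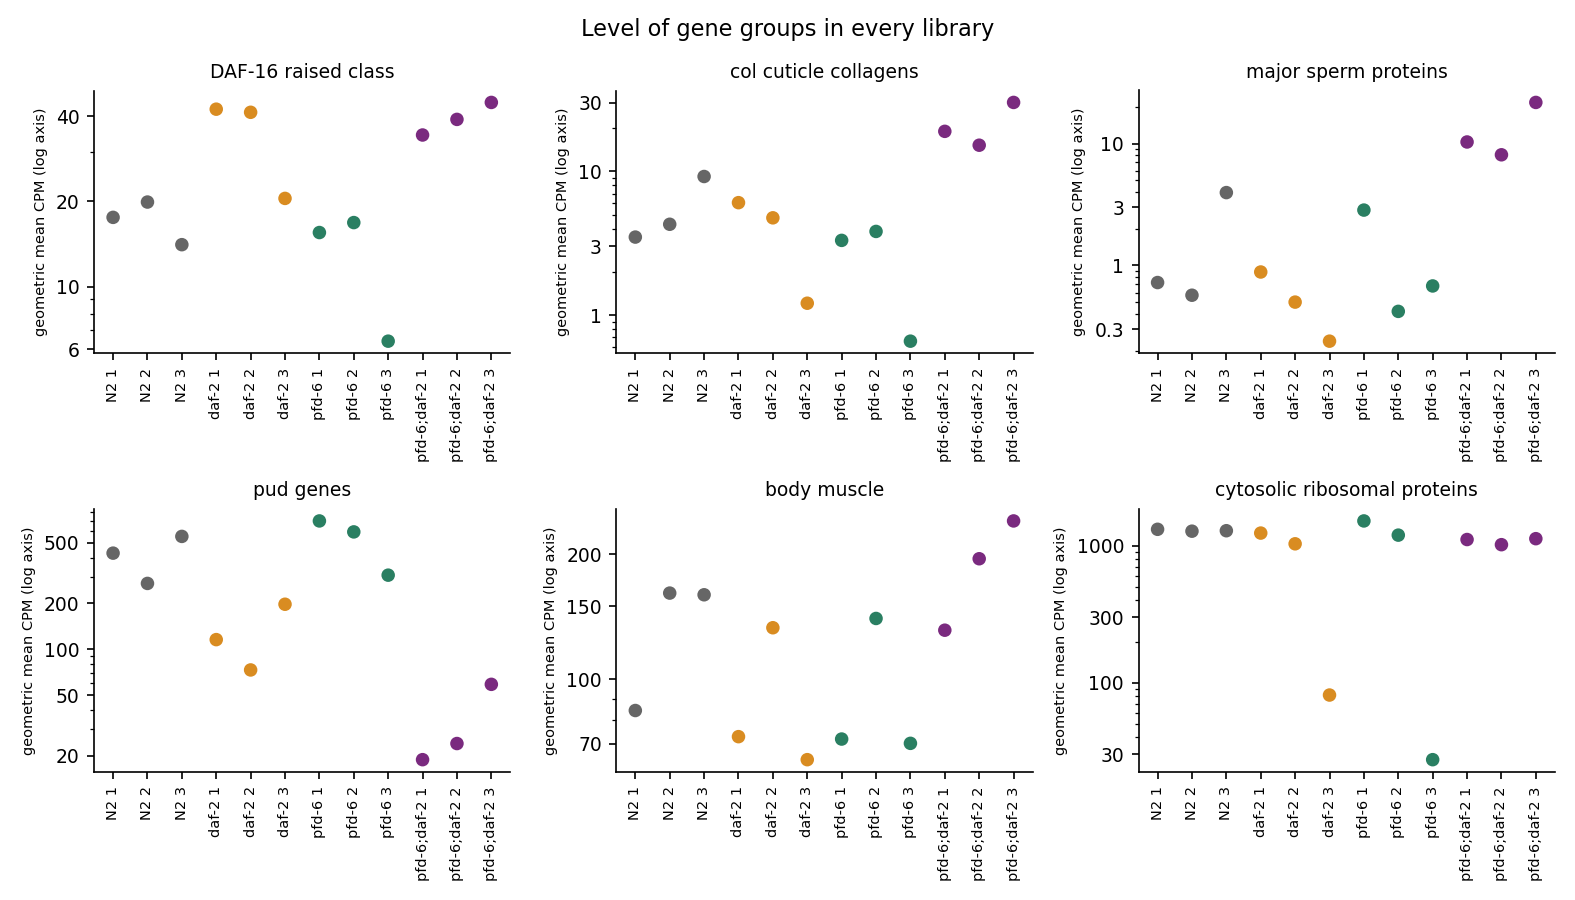
Geometric mean CPM (0.1 added before and taken off after the mean; log axis) of 6 gene groups in each of the 12 libraries, by genotype. The double mutant libraries lie above the pfd-6 libraries for collagens and DAF-16 raised genes and below them for pud genes; pfd-6 replicate 3 and daf-2 replicate 3 are the lowest of their groups for collagens.

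For some large changes the call differed with and without pfd-6 replicate 3. Among genes at 10 CPM or more in the higher group, the largest that passed only with it were F35E8.7, scl-19, asp-18, col-133 and col-88. col-133 had 0.425, 0.226 and 0.138 CPM in the pfd-6 mutant and 23.2, 14.6 and 46.4 CPM in the double mutant, with an adjusted p of 0.0229 with that library and 0.0583 without it, at log2 fold changes of 6.72 and 6.44. The groups did not overlap in either case. The col-133 call was also lost without pfd-6 replicate 1, double mutant replicate 1 or double mutant replicate 3. That of col-88 was lost without any 1 pfd-6 library, double mutant replicate 1 or double mutant replicate 3. These calls thus do not depend on pfd-6 replicate 3 alone. The largest that passed only without it were drd-10, T10E9.4, dod-23, thn-2 and fat-7. drd-10 had 141, 204 and 10.1 CPM in the pfd-6 mutant, so that its replicate 3 fell among the double mutant values of 13.8, 9.84 and 13.3 CPM; the adjusted p was 0.0781 with it and 0.0232 without it. fat-7, a stearoyl-CoA desaturase of oleate synthesis, had 108, 46.5 and 18.2 CPM and 15.1, 14.3 and 7.86 CPM, with log2 fold changes of -2.21 (adjusted p = 0.0906) and -2.59 without replicate 3 (adjusted p = 0.048).

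The same receptor mutation was also measured in a wild-type background, in daf-2 mutants against N2, with separate libraries but the same fit. There 138 genes were called (0.954%), 106 higher (0.733%) and 32 lower (0.221%). The 2 comparisons shared 52 genes called higher, 15% of the rises here and 49.1% of those in the wild-type background, and 28 called lower, 18.4% and 87.5%. Only 1 gene was called in opposite directions, F17E9.2, lower here and higher there (named after its values were seen). Of the 347 genes that rose here, 206 had the same sign in the wild-type background, and of the 152 that fell, 122 did. A call in 1 comparison only does not show that the effects differ. The difference itself, the interaction of the daf-2 and pfd-6 mutations, was called for 24 genes (0.166%), 5 upward (0.0346%) and 19 downward (0.131%), and for 23 (0.159%) without pfd-6 replicate 3, 7 upward (0.0484%) and 16 downward (0.111%). Of the 24, 3 were among the rises and 6 among the falls here.

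**Figure D5:**
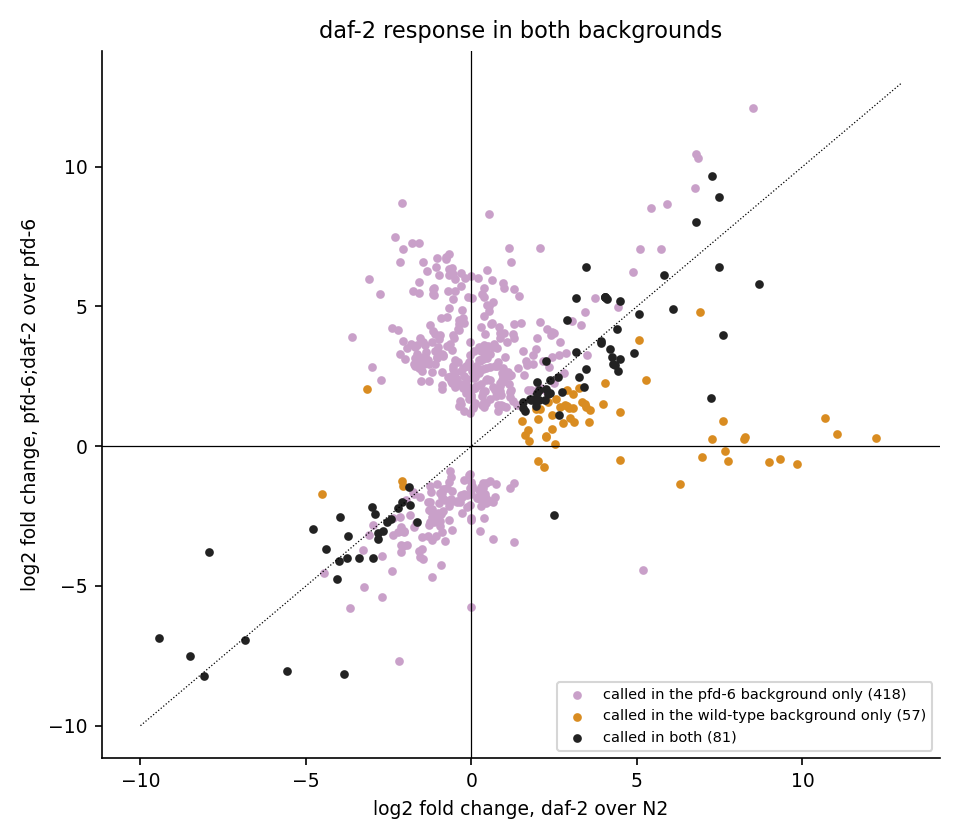
log2 fold change of the daf-2 mutation in the wild-type background (daf-2 mutant over N2, x) and in the pfd-6 background (double mutant over pfd-6 mutant, y) for genes called in either: 81 called in both, 418 only in the pfd-6 background and 57 only in the wild-type background. Most genes called in both lie in the upper right or lower left.

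Several of the clearest changes were present in both backgrounds. ilys-5 was at 359, 306 and 693 CPM in N2 replicates 1 to 3 and 0.475, 0.842 and 0.636 CPM in the daf-2 mutant, a log2 fold change of -9.43 there against -6.87 here. sod-3 changed by 2.38 there and 2.36 here, mtl-1 by 4.40 and 4.21, clec-15 by 6.79 and 8.01, and dod-22 by -4.06 and -4.76. For none of these 5 genes was the interaction called. Of the 27 major sperm protein genes none was called in daf-2 mutants against N2, where all 27 were negative with a median of -1.66, against 3.39 here, and none had a called interaction. The N2 level of these genes was far higher in replicate 3 than in replicates 1 and 2, which lay near daf-2 replicates 1 and 2. msp-3, for example, had 0.182, 0.196 and 2.06 CPM in N2 and 0.442, 0.162 and 0.0954 CPM in the daf-2 mutant. The negative median thus leans on N2 replicate 3. Of the 114 collagens none was called in daf-2 mutants against N2, where their median was -0.66, and their geometric mean was 3.49, 4.28 and 9.2 CPM in N2 and 6.05, 4.75 and 1.21 CPM in the daf-2 mutant. Among them col-38 had a called interaction, and the other 113 did not; a difference between backgrounds in the group as a whole was not tested. col-38 stood at 4.66, 4.54 and 4.54 CPM in N2, 3.06, 1.2 and 1.91 CPM in the daf-2 mutant, 0.881, 1.05 and 0.386 CPM in the pfd-6 mutant and 13.5, 8.72 and 18.4 CPM in the double mutant. Its interaction on the log2 scale was 5.29 (adjusted p = 0.00647), called with any of the 12 libraries left out. daf-2 replicate 3, the library with few ribosomal protein counts, was the lowest of its group in collagens.

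Called genes were spread over all 6 nuclear chromosomes. Rises made up 3.47% of genes tested on chromosome V, against 1.36 to 2.92% on the others, and falls 1.86%, against 0.467 to 1.18%; none of 14 mitochondrial genes was called. Runs of 3 or more called neighbours among the genes tested were found at 8 places, in coordinates of WBcel235 (ce11). They include the pud and nspc runs, a run of 3 rises on chromosome I between 4897620 and 4905173 (unc-38, of the nicotinic acetylcholine receptor, icmt-1, an isoprenylcysteine methyltransferase, and F21F3.2), and ugt-13 with C02E7.7 and C02E7.6 on chromosome V between 4908884 and 4919591. These runs were chosen after their values were seen.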

How the data were processed

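Whole-body mRNA of 12 day 1 adult libraries, 3 per genotype, was sequenced as paired ends. The deposited values used are expected counts per gene, so named per the file headers; 1.68 to 2.99% of entries were not whole, and all were rounded to whole numbers. The submitters' processing notes name R 3.1.3, limma 3.24.15, RSEM 1.3.1, HISAT2 2.0.5, StringTie 1.3.3 and the WBcel235/ce11 build, with no role given. Gene names and positions are from the Ensembl annotation, release 115, which held 46817 of 46904 IDs, 44017 of them with a symbol. Among genes tested, 54 share identical entries with another gene in every library. Strand handling was not given in the sources used here, so overlapping antisense genes may share reads.

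Libraries of 19394046 to 41009125 counts were scaled by TMM and fitted together in edgeR 4.0.16 (R 4.3.3) with 4 groups, so that all share an estimate of spread, and contrasts were tested by quasi-likelihood. A count of 3 over the pfd-6 group is 0.0313 CPM and over the double mutant group 0.0370 CPM; intervals and floors cover counting error only. The SE of a log2 fold change is its size divided by the square root of F. Since nothing says that replicates were grown apart beyond their being called biological repeats, p-values measure the spread between these libraries. The genes named are the 12 steepest rises and 12 steepest falls called with and without pfd-6 replicate 3, with no overlap and 10 CPM or more in the higher group; the 4 pathway genes hsf-1, daf-16, daf-2 and pfd-6; up to 4 members of each of 48 gene lists by smallest p, and every member of lists of 10 or fewer; the 5 largest called in only 1 of the 2 fits, each way; and the 5 smallest interaction p-values. Other called members are listed by name where a list's calls are counted. The gene lists and named rules were chosen with earlier results of these data known. limma 3.58.1 (voom), DESeq2 1.42.0, other filters, scalings, thresholds and left-out libraries were alternatives. The procedure was tested on simulated data with known changes: of 2-, 4- and 8-fold changes planted, 5.26, 41.7 and 87.3% were called, 1.75, 25.0 and 71.8% without pfd-6 replicate 3, and 0.0351 and 0.0140% of unchanged genes. Changes were planted only in genes with a higher mean count than the filter asks. Counts were drawn independently for each gene, so library-wide differences such as those of pfd-6 replicates 1 and 3 were not imitated. Promoter motifs planned for called genes were not analysed here.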

Additional observations from a re-analysis of the deposited data

Results flagged for a closer look

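The interaction of the daf-2 and pfd-6 mutations was called for 10 named genes, by edgeR's interaction test adjusted over all genes. In 6 of them it comes with N2 libraries at or near 0. Each genotype is a strain of its own, so a trait of the N2 strain cannot be told apart there from an effect of the mutations. fbxb-7, an F-box gene, had 0, 0 and 0 CPM in N2, 9.82, 7.45 and 9.6 CPM in the daf-2 mutant, 6.32, 6.89 and 9.53 CPM in the pfd-6 mutant and 9.74, 9.4 and 11.5 CPM in the double mutant, with an interaction of -10.61 (adjusted p = 0.000482) on the log2 scale, and fbxa-188 had -9.79 (adjusted p = 0.00354). Both had 0 counts over the N2 group, so the size of these values depends on the fit's prior and is no bound. fbxa-189, Y20C6A.1 and skr-5, a Skp1-related gene, had 3, 2 and 1 counts over the N2 group and interactions of -8.29 (adjusted p = 0.00117), -8.0 (adjusted p = 0.000615) and -7.94 (adjusted p = 0.00354), whose sizes rest on those few counts. These 5 genes were not called between the double mutant and the pfd-6 mutant, and their interaction was called with any of the 12 libraries left out. For ins-19, an insulin-like peptide, the interaction was -9.63 (adjusted p = 0.0115), with 0.026, 0 and 0 CPM in N2, 0.577, 0.583 and 0.572 CPM in the daf-2 mutant, 4.55, 4.14 and 1.35 CPM in the pfd-6 mutant and 0, 0.216 and 0.246 CPM in the double mutant; it was not called without N2 replicate 1 (0.0676) or N2 replicate 2 (0.0687).

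clec-222 had an interaction of -4.71 (adjusted p = 0.0106), with 18.3, 13.4 and 7.36 CPM in N2 and 38.6, 24.9 and 32.3 CPM in the daf-2 mutant, so that it was lower in the double mutant than in the pfd-6 mutant and its daf-2 libraries were above those of N2; the call was lost without double mutant replicate 1 (0.0536). clec-10 had an interaction of 4.13 (adjusted p = 0.0194): it fell in both backgrounds, to 0.034, 0.0647 and 0.0636 CPM in the daf-2 mutant, and the interaction call was lost in 9 of 12 fits that leave out a library (adjusted p 0.0101 to 0.0827). nas-3 had an interaction of -3.32 (adjusted p = 0.0471), lost in 11 of 12 such fits (0.0381 to 0.126). col-38 had an interaction of 5.29 (adjusted p = 0.00647).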

How the results depend on the processing

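None of the 99 named genes called changed sign under any alternative run; the other calls were not followed gene by gene. Most calls were upward with all libraries, and most were downward with the length offset, with the length offset and the block together, and at 0.01 without pfd-6 replicate 3. Most were also downward without pfd-6 replicate 3 and either other pfd-6 library, fits that leave 1 library in that group. With all libraries 499 genes were called (347 higher, 152 lower); the count was 505 with DESeq2's size factors (RLE), 606 with limma-voom, 509 with no filter, 76 (47 and 29) at an adjusted p under 0.01, 1268 (782 and 486) by DESeq2, and 248 (166 and 82) when the 6 libraries were fitted alone, with a length offset 1233 (777 lower). Leaving out 1 library gave 126 to 900 calls, 77 to 539 higher and 43 to 361 lower. Without pfd-6 replicate 3 the count of 388 was 29 (12 and 17) at 0.01, 1240 (882 and 358) by DESeq2, 1006 (571 lower) with the length offset and 585 (164 lower) with daf-2 replicate 3 also left out; leaving out a further library gave 22 to 585, 8 to 421 higher and 14 to 164 lower, the lowest without pfd-6 replicate 1. The interaction count of 24 was 11 at 0.01, 461 by DESeq2, 6 with replicates 1 and 2 alone and 12 to 24 with 1 library left out, and could not be had from the compared groups alone. Same-numbered libraries correlated at 0.306, 0.0519 and 0.0166 in their deviations from the group means, and differently numbered ones at -0.201 to 0.106. No label says that a number marks a shared batch, and these few values do not settle whether the numbers pair samples. With the replicate block 1479 genes were called (916 and 563), 1155 (878 and 277) without pfd-6 replicate 3, and 50 interactions; with the block and the length offset together, 2500 (860 and 1640), 2619 (949 and 1670) and 111. The causes were not tested. Of 99 named genes called, 23 stayed called under every setting of the 26 but the stricter threshold. Depth limits genes near 0: 308 called genes average under 10 CPM in the higher group.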

Other observations

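Among abundant genes that the naming rule does not reach (chosen after their values were seen), adh-1, an alcohol dehydrogenase, stood at 7.59, 11 and 8.35 CPM in pfd-6 replicates 1 to 3 and 89, 113 and 154 CPM in the double mutant (log2 change 3.72 with an SE of 0.58 and an adjusted p of 0.00802), and its call held with any library left out. Its level was 5.23, 15.1 and 30.1 CPM in N2 and 19.1, 34.2 and 51.4 CPM in the daf-2 mutant. D1086.3 fell from 349, 245 and 383 CPM to 53.6, 53.2 and 48.1 CPM (log2 change -2.66 with an SE of 0.32 and an adjusted p of 0.00223), with every double mutant library below every pfd-6 library, and its call also held with any library left out. D1086.3 also had a called interaction of the daf-2 and pfd-6 mutations. That interaction call was lost in 10 of 12 fits that leave out a library (adjusted p 0.0276 to 0.137, edgeR's interaction test).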
